A study of Monodelphis domestica with 6 samples.

Results

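The genes described here encode the LIF and IL6 branch of cytokine signalling in *Monodelphis domestica*, a South American marsupial: the ligands *LIF* and *IL6*, the receptor chains *LIFR*, *OSMR* and *IL6ST*, the kinases *JAK1* and *JAK2*, the transcription factor *STAT3* and its feedback inhibitor *SOCS3*. They were chosen by gene symbol, and each of the 9 symbols had 1 entry among the 35665 genes of the deposited tables. RNA-seq compared neonatal skin fibroblasts (neoSFs), the parental cells, with the induced pluripotent stem cells made from them (monoiPSCs), to ask how the transcriptome is reset by reprogramming. The neoSFs were wild-type primary cultures, 1 from the inbred strain FD2M1 and 1 from the inbred strain LSD1, taken from the skin of 10-day-old female pups and grown for 3 to 4 passages in a medium with 16% fetal bovine serum. The monoiPSCs were wild-type cells of the same strains, 1 line per strain, reprogrammed with episomal plasmids that carry human OCT4, SOX2, NANOG, KLF4, LIN28 and cMYC, and each line was sequenced at passage 15 and at passage 25. The monoiPSC medium held human LIF at 10 ng/ml and bFGF at 50 ng/ml, so the monoiPSCs were supplied with the ligand from outside.

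Cytokines of this family bind a receptor complex that shares the chain IL6ST, also called gp130. The partner chains differ by ligand, and include LIFR for LIF and OSMR for oncostatin M. The receptor chains carry Janus kinases on their inner side, which phosphorylate STAT3 so that it enters the nucleus. STAT3 switches on *SOCS3*, whose product binds the receptor and the kinases and damps the signal. In mouse embryonic stem cells LIF acting through STAT3 maintains self-renewal, while cultured fibroblasts are a known source of LIF and IL6. The RNA levels given here do not show whether STAT3 was phosphorylated.

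The neoSF libraries held 14278794 counts (FD2M1) and 16982978 counts (LSD1), and the 4 monoiPSC libraries between 28684754 and 35564261. The neoSF libraries were read in-house as 50 bp single-end reads and the monoiPSC libraries by a service as 150 bp paired-end reads. The sequencing, the medium and the cell type separate the libraries in the same way, and their effects on a gene cannot be told apart. Of 14 fibroblast markers, 12 had an entry and all 12 were lower in monoiPSCs, with a summed normalized read count (NRC, the deposited log2 value returned to a linear scale) of 2120020 and 2655210 in neoSFs and of 10157 to 14772 in monoiPSCs. *TWIST2* was at 0 in both FD2M1 monoiPSC libraries. All 12 pluripotency markers were higher in monoiPSCs, with sums of 165 and 246 against 15495 to 20261. No library went against its label. The 4 monoiPSC libraries are 2 passages of each of 2 lines, and nothing in the labels says that libraries of a group are separate cultures beyond that, so p-values measure the spread between these libraries.

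All 9 genes were lower in monoiPSCs than in neoSFs. The ligands differed most, with a 38.3-fold lower *LIF* and a 59.2-fold lower *IL6*, followed by *JAK2* at 10.7-fold and *OSMR* at 9.59-fold. *STAT3* itself differed least, at 2.57-fold. The order of the ligands rested on the neoSF libraries: without LSD1 neoSF the folds were 20.3 for *IL6* and 50.1 for *LIF*, and without FD2M1 neoSF 96.7 and 25.7. Differentially expressed (DE) genes were called with edgeR's quasi-likelihood test where p, adjusted over all tested genes after Benjamini and Hochberg, was 0.05 or less and the fold change 2 or more, and 9 of 9 were DE, all lower. Of the 13072 genes tested, 45.9% were DE, 21.6% DE and lower and 24.3% DE and higher. In all 9 genes each of the 4 monoiPSC libraries lay below both neoSF libraries, a pattern found in 37.1% of the tested genes. The exact two-sided permutation test of 4 libraries against 2 gave p = 0.0667 for each of the 9, which is the smallest p that its 15 splits allow. The median log2 fold change of the 9 genes was -2.05, beside 0.08 over all tested genes. *LIF* and *IL6* entered the test only through their neoSF levels, since their NRC fell under the minimum of 20 in at least 1 monoiPSC library. Entry by that route favours a lower result, so the calls of *LIF* and *IL6* are not independent of the filter. The other 7 exceeded the minimum in all 6 libraries. In bulk RNA fewer cells with a transcript and less transcript per cell cannot be told apart.

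**Figure D1:**
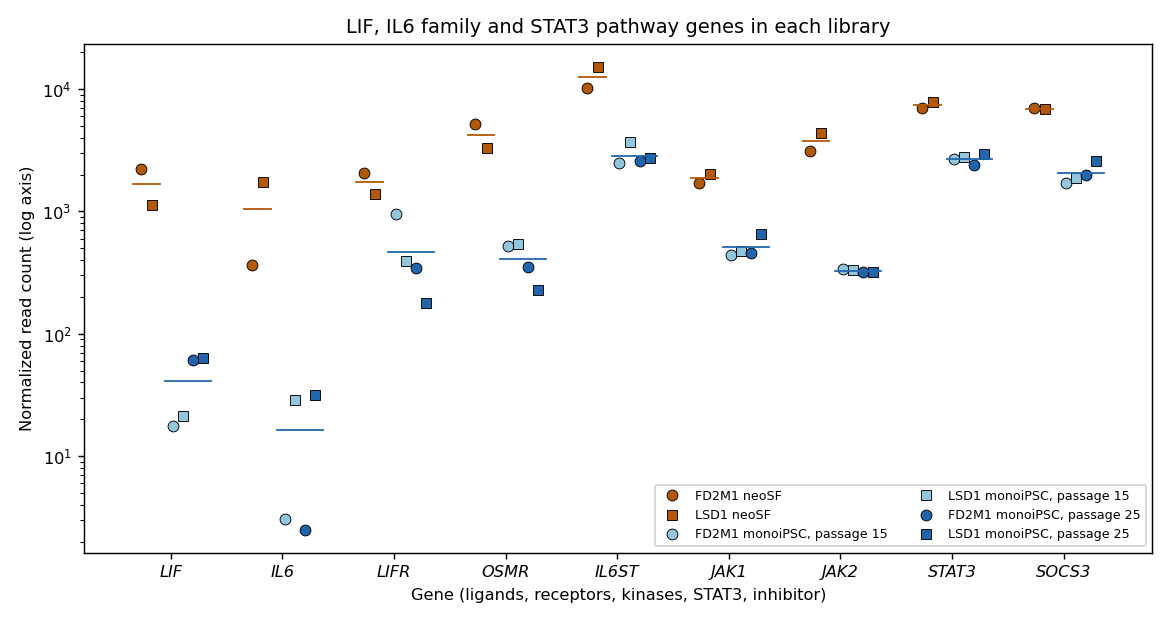
Normalized read count (log axis) of the 9 genes in each of the 6 libraries, neoSF in orange and monoiPSC in blue, FD2M1 as circles and LSD1 as squares; horizontal lines are group means of 2 neoSF and 4 monoiPSC libraries. Each blue point lies below both orange points of its gene, and the gap is widest for *LIF* and *IL6*.

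*LIF* (gene 100018708, MonDom5 chromosome 3) encodes the leukemia inhibitory factor. Its NRC was 2218 in FD2M1 neoSFs and 1125 in LSD1 neoSFs. In monoiPSCs it was 17.6 for FD2M1 and 21.1 for LSD1 at passage 15, and 60.7 for FD2M1 and 63.7 for LSD1 at passage 25. The 2 lines were close to each other at each passage, and the passage 25 libraries were the higher pair. The neoSF mean was 1672 ± 773 (SD, n = 2) and the monoiPSC mean 40.8 ± 24.8 (SD, n = 4), a log2 fold change of -5.26 (SE 0.57, adjusted p = 0.00024, edgeR's quasi-likelihood test). The monoiPSC values rest on 31.3 to 124 estimated counts. Relative to the neoSFs of the same strain, *LIF* stood at 0.793% to 5.66% in monoiPSCs, while the summed fibroblast markers stood at 0.383% to 0.697%. Single fibroblast markers above 0 differed widely, from -11.0 to -1.51 on the log2 scale against the same neoSFs. *LIF* ran from -6.98 to -4.14, within that range. The part of any remaining fibroblast RNA in the *LIF* level was not tested.

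*IL6* (gene 103104339, chromosome 8) encodes an inflammatory cytokine that signals through the same shared chain. Its NRC was 366 in FD2M1 neoSFs and 1740 in LSD1 neoSFs. The FD2M1 line had 3.05 at passage 15 and 2.51 at passage 25, and the LSD1 line 28.5 and 31.9. The 2 lines did not overlap, and LSD1 was the higher strain in both cell types: 4.75-fold in neoSFs, 9.36-fold at passage 15 and 12.7-fold at passage 25. The FD2M1 monoiPSC values rest on 5.43 and 4 estimated counts, just above the 3 counts taken as the limit of detection. The neoSF mean was 1053 ± 971 (SD, n = 2), and that of the monoiPSCs 16.5 ± 15.9 (SD, n = 4). The log2 fold change was -5.89 (SE 1.02, 95% interval -8.28 to -3.49), with an adjusted p of 0.00196 in edgeR's quasi-likelihood test. Without the LSD1 neoSF library it was -4.34 (adjusted p = 0.0149, edgeR), and without the FD2M1 neoSF library -6.60 (adjusted p = 0.00185, edgeR). *IL6* stood at 0.686% to 1.83% of the level in the neoSFs of its own strain, beside 0.383% to 0.697% for the summed fibroblast markers. On the log2 scale this was -7.19 to -5.77, within the -11.0 to -1.51 of the single fibroblast markers above 0. The 6 macrophage markers with an entry, of 8 listed, summed to 131 and 129 in neoSFs and to 61.2 to 78.3 in monoiPSCs. Single macrophage markers differed in direction. *CSF1R* was lower in monoiPSCs, at 5.44 to 10.4 against 71.2 and 77.9, while *CD14* was higher, at 22.0 to 31.4 against 15.6 and 14.3. Of the 6, 3 were tested, 1 DE and lower and 2 not DE. The part of fibroblasts or macrophages in the *IL6* level was not tested.

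*LIFR* (gene 100019437, chromosome 3) encodes the chain that binds LIF. Its NRC was 2069 in FD2M1 neoSFs and 1388 in LSD1 neoSFs. In monoiPSCs it was 953 for FD2M1 and 391 for LSD1 at passage 15, and 347 for FD2M1 and 177 for LSD1 at passage 25. The monoiPSC libraries were more widely spread, relative to their mean, than for *OSMR* and *IL6ST*, with a mean of 467 ± 337 (SD, n = 4) against 1728 ± 482 (SD, n = 2) in neoSFs. *LIFR* was 3.45-fold lower, a log2 fold change of -1.79 (SE 0.57, 95% interval -3.11 to -0.46, adjusted p = 0.0268, edgeR's quasi-likelihood test). This was the least certain call of the 9. It was lost without the FD2M1 neoSF library (-1.46, adjusted p = 0.126), without LSD1 at passage 15 (-1.71, adjusted p = 0.0697) and without FD2M1 at passage 25 (-1.67, adjusted p = 0.0630), in the same edgeR test. Without FD2M1 at passage 15 *LIFR* was instead 5.32-fold lower (-2.41, adjusted p = 0.0022, edgeR).

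*OSMR* (gene 100019300, chromosome 3) encodes the oncostatin M receptor chain. In the gene order of the RefSeq annotation of mMonDom1.pri, another assembly, it is the neighbour of *LIFR*. Its NRC was 5145 in FD2M1 neoSFs and 3270 in LSD1 neoSFs, against 517 for FD2M1 and 542 for LSD1 at passage 15 and 354 for FD2M1 and 226 for LSD1 at passage 25. The groups were far apart, at 4207 ± 1326 (SD, n = 2) and 410 ± 148 (SD, n = 4). The log2 fold change was -3.26 (SE 0.36, adjusted p = 0.000239, edgeR's quasi-likelihood test).

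*IL6ST* (gene 100017284, chromosome 3) encodes the chain that all of these receptors share. Its NRC was 10182 in FD2M1 neoSFs and 15097 in LSD1 neoSFs. The FD2M1 line had 2475 at passage 15 and 2560 at passage 25, and the LSD1 line 3661 and 2740. The difference between groups exceeded the spread within either, and the log2 fold change was -2.05 (SE 0.23, adjusted p = 0.00025, edgeR's quasi-likelihood test). Unlike the ligands, the shared chain stood at 18.1% to 25.1% of the level in the neoSFs of the same strain.

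*JAK1* (gene 100031307, chromosome 2) and *JAK2* (gene 100017930, chromosome 6) encode the kinases bound to these receptors. The NRC of *JAK1* was 1701 in FD2M1 and 2015 in LSD1 neoSFs, while the FD2M1 line had 443 at passage 15 and 457 at passage 25, and the LSD1 line 477 and 652. It was 3.43-fold lower in monoiPSCs, with a log2 fold change of -1.78 (SE 0.20, adjusted p = 0.000248, edgeR's quasi-likelihood test). The LSD1 library at passage 25 stood apart from the other monoiPSC libraries for *JAK1*. *JAK2* had an NRC of 3133 in FD2M1 and 4339 in LSD1 neoSFs, while the FD2M1 line had 339 at passage 15 and 318 at passage 25, and the LSD1 line 334 and 323. The 4 monoiPSC values were closely grouped, at 329 ± 9.64 (SD, n = 4). Its log2 fold change of -3.41 (SE 0.16, adjusted p = 1.27e-05, edgeR's quasi-likelihood test) had the smallest adjusted p of the 9 genes. The intervals of *JAK1* (-2.24 to -1.32) and *JAK2* (-3.79 to -3.03) did not overlap.

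*STAT3* (gene 100011382, chromosome 2), the factor on which these signals converge, had an NRC of 6997 in FD2M1 and 7827 in LSD1 neoSFs. The FD2M1 line had 2656 at passage 15 and 2373 at passage 25, and the LSD1 line 2809 and 2965. The monoiPSC libraries stood at 33.9% to 38.0% of the level in the neoSFs of the same strain. The log2 fold change was -1.36 (SE 0.15, 95% interval -1.70 to -1.02, adjusted p = 0.000225, edgeR's quasi-likelihood test).

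*SOCS3* (gene 100026656, chromosome 2), the inhibitor that STAT3 induces, had an NRC of 6980 in FD2M1 and 6814 in LSD1 neoSFs. The FD2M1 line had 1720 at passage 15 and 1982 at passage 25, and the LSD1 line 1892 and 2598. The neoSF libraries nearly coincided, at 6897 ± 117 (SD, n = 2), and the monoiPSC mean was 2048 ± 382 (SD, n = 4). The log2 fold change was -1.66 (SE 0.18, adjusted p = 0.000239, edgeR's quasi-likelihood test). *SOCS3* stood at 24.6% to 38.1% of the level in the neoSFs of the same strain.

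The rest of the pathway was taken from lists of ligands, receptors, kinases, STAT factors, inhibitors, adaptors and STAT3 target genes. Of 68 listed genes, the 9 included, 61 had an entry and 55 were tested. Of these 26 were DE and lower, 7 DE and higher and 22 not DE, with a median log2 fold change of -0.88. Without the 9 genes, 46 were tested, of which 17 were DE and lower, 7 DE and higher and 22 not DE, with a median of -0.73, beside 0.08 over all tested genes. The counts of each list below stand beside 21.6% DE and lower and 24.3% DE and higher over all tested genes. *IL11*, *CLCF1*, *IL31*, *STAT2*, *STAT5B*, *STAT6* and *BCL6* matched no symbol and were not analysed here.

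**Figure D2:**
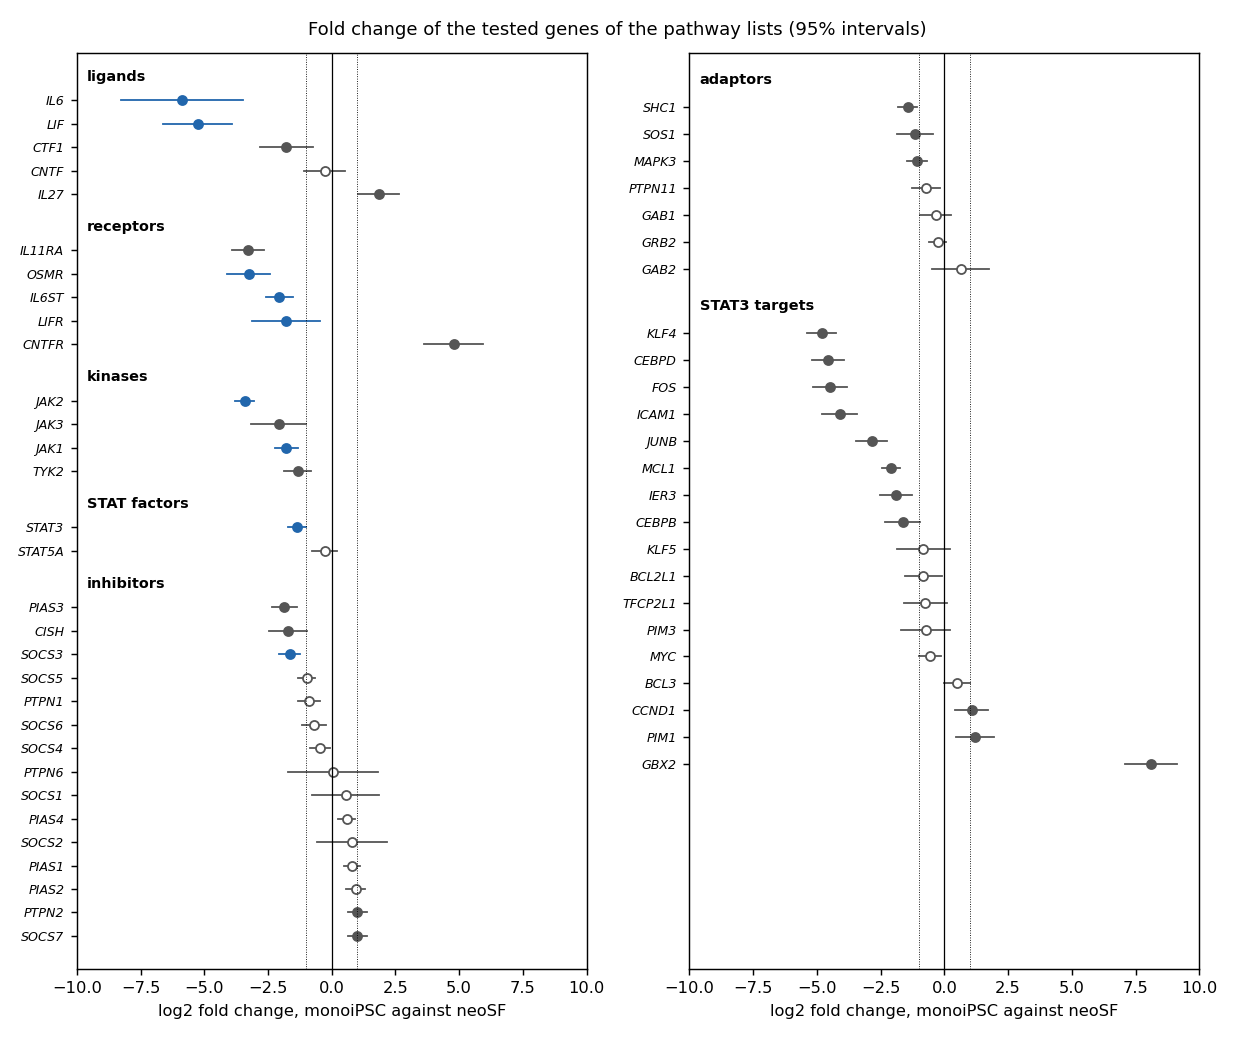
Log2 fold change of monoiPSC against neoSF (x axis) for the 55 tested genes of the pathway lists, with 95% intervals; blue marks the 9 genes, filled circles are DE, open circles are not, and dotted lines mark a fold change of 2. Receptor and kinase genes lie left of 0 except *CNTFR*, and the inhibitors lie on both sides.

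The other ligands did not move as one. *CTF1*, which encodes cardiotrophin, a LIF-like cytokine, had an NRC of 108 and 166 in neoSFs and of 18.1 to 51.0 in monoiPSCs (log2 fold change -1.78, SE 0.45, adjusted p = 0.0103, edgeR's quasi-likelihood test). That call was lost without the LSD1 neoSF library (-1.40, adjusted p = 0.0809, edgeR), and *CTF1* entered the test only through its neoSF levels. *IL27*, a cytokine subunit of the wider family, was higher in monoiPSCs, at 93.5 to 141 against 35.1 and 40.2 (1.84, SE 0.34, adjusted p = 0.00267, edgeR's quasi-likelihood test). *CNTF* was not DE (-0.27, 95% interval -1.09 to 0.54). *OSM*, the ligand gene next to *LIF* in the gene order of mMonDom1.pri, had 0 counts in all 6 libraries. With 3 counts as the limit, this allows an NRC of up to 5.85 and 4.75 in the neoSFs and 1.55 to 1.88 in the monoiPSCs, for counting error only. *EBI3*, the partner of IL27, likewise had 0 counts in all 6.

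Among the receptors, 5 genes were tested, of which 4 were lower and 1 was higher, each of them DE. The lower genes include *LIFR*, *OSMR* and *IL6ST*, given above. Without the 9 genes, 2 receptors were tested, 1 DE and lower and 1 DE and higher. The higher gene was *CNTFR*, the chain that binds ciliary neurotrophic factor and signals with LIFR and IL6ST. Its NRC was 25.7 in FD2M1 and 42.6 in LSD1 neoSFs, while the FD2M1 line had 672 at passage 15 and 589 at passage 25, and the LSD1 line 955 and 1356. Every monoiPSC library was above both neoSF libraries, and *CNTFR* was 27.6-fold higher (log2 fold change 4.79, SE 0.50, adjusted p = 0.000195, edgeR's quasi-likelihood test). *IL11RA*, the binding chain for IL11, was lower, at 305 to 463 against 5329 and 2865 (-3.29, SE 0.27, adjusted p = 7.47e-05, edgeR). *IL6R*, the binding chain for IL6, was under the expression minimum and was not tested. Its NRC was 75.0 in FD2M1 neoSFs, 10.6 in LSD1 neoSFs and 1.57 to 8.37 in monoiPSCs.

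All 4 Janus kinase genes were DE and lower, *JAK1* and *JAK2* of the 9 genes included. *TYK2* had an NRC of 1332 and 2011 in neoSFs and of 489 to 719 in monoiPSCs (-1.34, SE 0.22, adjusted p = 0.00167, edgeR), although without the LSD1 neoSF library its log2 fold change of -0.99 missed the 2-fold threshold. *JAK3*, which serves mainly receptors of blood cells, had low levels, at 126 and 49.4 against 13.7 to 23.6 (-2.08, SE 0.46, adjusted p = 0.00572, edgeR), and was lost without the FD2M1 neoSF library (-1.24, adjusted p = 0.0920, edgeR). It too entered the test only through its neoSF levels. *STAT5A*, which encodes another STAT factor and is the neighbour of *STAT3* in the gene order of mMonDom1.pri, was not DE (-0.28, SE 0.21, 95% interval -0.77 to 0.22). *STAT5A* carries a LOC number in the tables and was matched by gene number.

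Of 15 inhibitors tested, 3 were DE and lower, 2 DE and higher and 10 not DE, beside 45.9% DE over all tested genes. Beside *SOCS3*, the lower genes were *CISH*, its relative that acts mainly on STAT5, at 257 to 520 against 1238 and 1058 (-1.72, SE 0.31, adjusted p = 0.0024, edgeR), and *PIAS3*, a nuclear inhibitor that binds STAT3, at 419 to 635 against 1824 and 2218 (-1.86, SE 0.21, adjusted p = 0.000267, edgeR). *SOCS7* and *PTPN2*, a phosphatase that acts on Janus kinases and STATs, were each higher by a log2 fold change of 1.00 (SE 0.16), at the threshold, and each lost the call under 10 of 12 alternative settings. *SOCS1*, a close relative of *SOCS3* named after its values were seen, had an NRC of 174 in FD2M1 and 862 in LSD1 neoSFs and of 565 to 923 in monoiPSCs. Its groups overlapped, and its log2 fold change of 0.55 had an interval of -0.77 to 1.86.

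The 7 genes listed as adaptors lie on the way from the receptor to the MAP kinase branch, and include the kinase gene *MAPK3* itself. Of these 7, 3 were DE and lower and 4 not DE, a share near the 45.9% DE over all tested genes. The lower genes were *SHC1* (-1.44, SE 0.16), *SOS1* (-1.15, SE 0.30) and *MAPK3* (-1.07, SE 0.17). Without the LSD1 neoSF library *SOS1* lost the call (adjusted p = 0.0645, edgeR) and *MAPK3* missed the 2-fold threshold at -0.98.

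The 17 genes listed as STAT3 targets went in both directions: 8 were DE and lower, 3 DE and higher and 6 not DE. *KLF4*, a pluripotency factor that STAT3 induces in mouse embryonic stem cells, had an NRC of 1634 and 1960 in neoSFs and of 43.2 to 77.3 in monoiPSCs (-4.81, SE 0.24, adjusted p = 1.51e-05, edgeR's quasi-likelihood test). Human KLF4 was also among the factors on the reprogramming plasmids, and the counts given are for the opossum gene. *GBX2*, a homeobox gene also induced by STAT3 in those cells, was DE and higher, at 1074 to 1923 in monoiPSCs against 5.85 and 4.91 in neoSFs. Its neoSF values rest on 3 and 3.10 estimated counts, at the limit of detection, and it entered the test only through the monoiPSC libraries, so no fold is given. *TFCP2L1*, another self-renewal factor induced by STAT3 there and named after its values were seen, was low in all libraries, at 36.8 and 48.3 against 21.6 to 28.1 (-0.75, SE 0.36, adjusted p = 0.103, edgeR).

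Other genes of the target list were also lower. The transcription factor *CEBPD* had an NRC of 10655 and 8139 in neoSFs and 247 to 481 in monoiPSCs (-4.55, SE 0.27), *FOS* 18906 and 23335 against 530 to 1088 (-4.49, SE 0.29), and the adhesion molecule gene *ICAM1*, matched by gene number, 5723 and 4158 against 157 to 337 (-4.10, SE 0.29). *JUNB*, *MCL1*, *IER3* and *CEBPB* were DE with log2 fold changes of -2.85, -2.10, -1.89 and -1.64. *PIM1*, a survival kinase (1.20, SE 0.33), and *CCND1*, cyclin D (1.07, SE 0.28), were higher. *PIM1* lost the call without the FD2M1 neoSF library (0.95, adjusted p = 0.0861, edgeR) and *CCND1* without the LSD1 neoSF library (0.74, adjusted p = 0.0614, edgeR), and both missed the 2-fold threshold without FD2M1 at passage 25 (0.94 and 0.96).

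The genes whose pattern over the 6 libraries lay nearest to that of *STAT3* were *PNPLA8*, *FAM172A* and *PPP2R4*, at distances of 0.12, 0.13 and 0.16. The distance is Euclidean, between log2 values centred per gene. For *LIFR* the nearest were *EGFL6*, *LDB2* and *DSE*, at larger distances of 0.48, 0.57 and 0.66. All 3 shared with *LIFR* the order FD2M1 neoSF, LSD1 neoSF, FD2M1 passage 15 from the highest down, with LSD1 at passage 25 the lowest. These are descriptions over 6 libraries that share the neoSF and monoiPSC groups.

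The passages were then compared within the monoiPSC lines, with strain as a covariate. *LIF* and *IL6* were under the expression minimum there, and 0 of the other 7 genes were called with edgeR's quasi-likelihood test, in which 0% of 12252 tested genes were called and 1145 had an unadjusted p under 0.05. DESeq2 called 119 genes, 0.971% of those tested, and 1 of the 7, *LIFR*. *LIFR* was lower at passage 25 in both lines, at 0.365 of the passage 15 level in FD2M1 and 0.453 in LSD1. Its log2 fold change was -1.31 (SE 0.20, 95% interval -1.81 to -0.82), with an adjusted p of 0.164 in edgeR and 0.0024 in DESeq2. *OSMR* was at 0.685 and 0.417 of the passage 15 level (-0.92, SE 0.26, adjusted p = 0.414 in edgeR). The summed fibroblast markers were at 0.910 and 0.966. Of the 11 markers above 0 in all 4 libraries, 3 were lower at passage 25 in both lines, 3 higher in both and 5 differed in direction between the lines, with medians of 0.940 in FD2M1 and 1.13 in LSD1. The ratios ran from 0.281 to 2.43. The lowest were those of *PDGFRA*, at 0.305 in FD2M1 and 0.281 in LSD1, so this marker was lower in both lines, as *LIFR* was. The part of other cell types in the *LIFR* difference was not tested.

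*LIF* was at 3.45 times its passage 15 level in FD2M1 and 3.01 times in LSD1. Without the expression minimum its log2 fold change was 1.69 (SE 0.45, 95% interval 0.59 to 2.78) with an adjusted p of 0.451 in edgeR's quasi-likelihood test, so the difference was not called. The intervals for passage 25 against passage 15 were -0.42 to 0.31 for *STAT3*, -0.05 to 0.69 for *SOCS3*, -0.63 to 0.46 for *JAK2*, -0.26 to 0.73 for *JAK1* and -0.63 to 0.23 for *IL6ST*. A 2-fold difference between passages lies outside each of these 5 intervals.

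**Figure D3:**
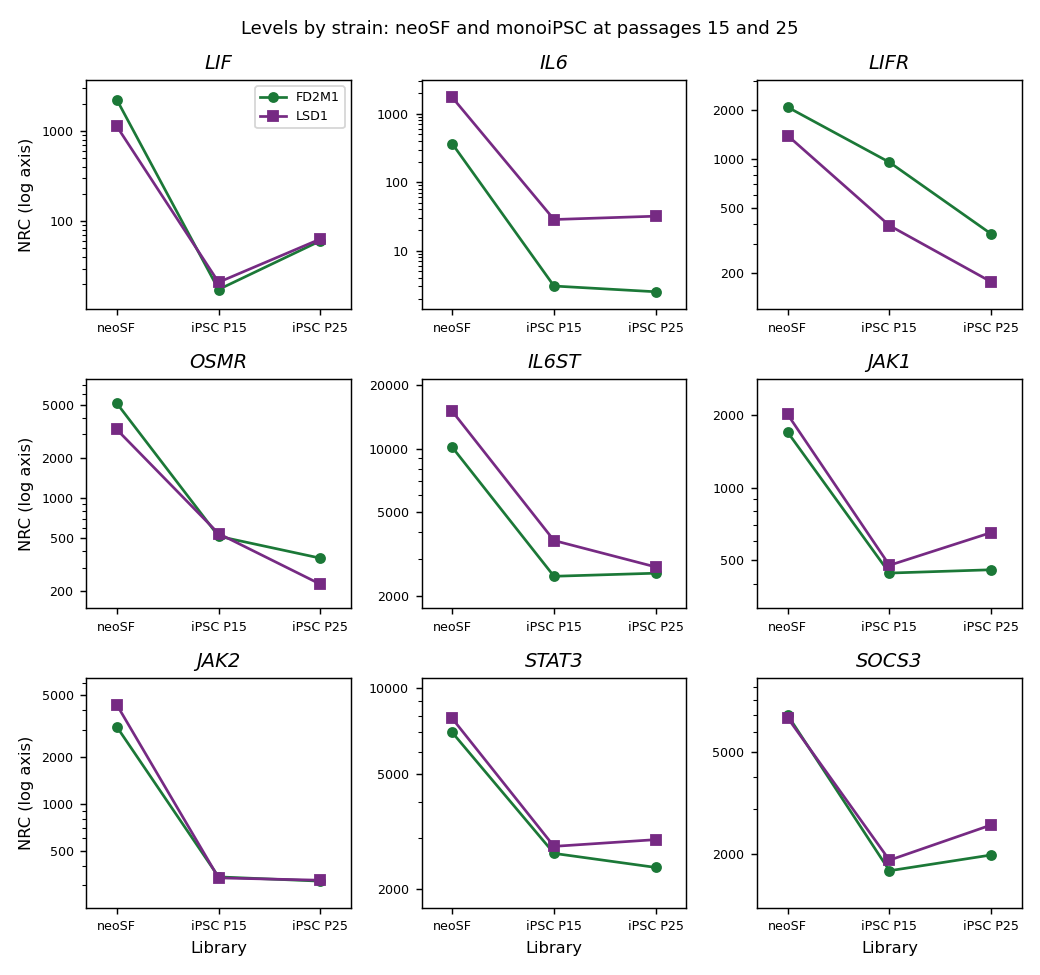
Normalized read count (NRC, log axis with its own scale per panel) of the 9 genes in neoSFs and in monoiPSCs at passages 15 and 25 (x axis), FD2M1 in green and LSD1 in purple, 1 library per point; lines join libraries of 1 strain. *LIFR* and *OSMR* were lower and *LIF* higher at passage 25 in both strains, and the *IL6* lines stay apart.

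The strains were compared over the same 4 libraries, with passage as a covariate. Each strain had 1 line and 1 neoSF library, so a difference of strain cannot be told apart from one of line or culture. No other line of a strain enters the p-values. Again 0 of the 7 tested genes were called with edgeR's quasi-likelihood test, beside 0% of 12252 genes, of which 1736 had an unadjusted p under 0.05. DESeq2 called 191 genes, 1.56%, and *LIFR* among the 7. *LIFR* was lower in LSD1 than in FD2M1 at both passages (log2 fold change -1.13, SE 0.20, adjusted p = 0.138 in edgeR and 0.0131 in DESeq2). In neoSFs FD2M1 likewise had more *LIFR*, at 1.49 times the LSD1 level. With all 6 libraries and cell type as a covariate, a fit added after the data were seen, edgeR called 0 of 9 and 0% of the 13072 genes, of which 1259 had an unadjusted p under 0.05, and DESeq2 called 118 genes, 0.903%, and 1 of the 9. That gene was *IL6*, higher in LSD1 by 2.83 on the log2 scale (SE 0.32, 95% interval 2.06 to 3.61), with an adjusted p of 0.222 in edgeR and 8.16e-08 in DESeq2.

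Whether the difference between monoiPSCs and neoSFs itself differed between the strains was tested with an interaction term. None of the 9 genes was called in edgeR's quasi-likelihood test, which called 11 of 13072 genes, 0.0841%, with 1193 at an unadjusted p under 0.05. DESeq2 called 306 of the same 13072 genes, and 0 of the 9. *IL6* had an interaction of 1.20 (SE 0.47, 95% interval 0.04 to 2.35), with an unadjusted p of 0.0440 and an adjusted p of 0.526 in edgeR. The fit holds 1 neoSF library per strain, so its spread comes from the passages of a line.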

How the data were processed

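The data were 6 RNA-seq libraries, 2 of neoSFs and 4 of monoiPSCs. Per the labels and methods, reads were aligned to MonDom5 and counted on RefSeq genes with StrandNGS v4. The raw counts that the authors deposited were fractional in 86.8% of the values above 0 (tolerance 1e-06), so they were handled as estimated counts and rounded before testing. The deposited log2 values, scaled by the authors with DESeq, were returned to the NRC. Whether counting used strand, and how read pairs were counted, is not given in the sources used here.

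Genes whose NRC reached 20 in each neoSF library or in each monoiPSC library (for passage and strain, in all 4 of the latter) were tested with edgeR 4.0.16 (TMM, glmQLFit, glmQLFTest, R 4.3.3) with thresholds of 0.05 on the adjusted p and 2 on the fold change, and no block. The interaction was called at the adjusted p alone. Intervals are 95% intervals. DESeq2 1.42.0, limma 3.58.1, RLE scaling, other filters, strain as a block and leaving out each library were alternatives, and exact permutation tests used scipy 1.17.1. Counts were also simulated with 200 genes changed 4-fold, 1 dispersion for all genes and no other difference between libraries than depth. For monoiPSC against neoSF edgeR recovered 198 and called 1 unchanged gene. It recovered 200 and called 1 for passage, 200 and 0 for strain, and 133 and 5 for the interaction. Real genes differ in dispersion, so these numbers do not show how many true differences the tests would find.

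The 9 genes were listed by symbol. The pathway and marker lists were written by hand, and 3 genes first listed are left out and not reported here. The 9 genes and all lists were chosen with earlier results of these data known. Other genes named are every DE gene of the pathway lists (the rule required only the 4 largest fold changes in each direction for lists with more), single list genes at the detection limit, and the 3 nearest patterns to *LIFR* and *STAT3*. *CNTF*, *IL6R*, *STAT5A*, *SOCS1*, *TFCP2L1*, *PDGFRA*, *CSF1R* and *CD14* were named after their values were seen. Of the other markers, 1 keratinocyte gene of 4 found was tested and was lower, and of 6 endothelial genes found 3 were tested, 1 higher, 1 lower and 1 not DE. The RefSeq table of mMonDom1.pri was used only for names and gene order, and no sequence or coordinate is given. Neither transcript lengths nor other depth-free levels were used, so levels are not compared between genes.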

Additional observations from a re-analysis of the deposited data

Results flagged for a closer look

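In each of 33 named genes, the 4 monoiPSC libraries were checked for a highest or lowest library that stood apart from the others, and 4 genes had one. Chance gives about 5% of such groups. *JAK1* had an NRC of 652 in LSD1 at passage 25, against 477 in the next library. *CISH* had 520 in the same library, against 271 in the next. *SHC1* had 3143 in FD2M1 at passage 15, against 2464 in the next, and *MCL1* had 1635 in that library, against 1355. All 4 genes were DE and lower in monoiPSCs with and without these libraries.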

How the results depend on the processing

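The 9 genes were all DE and lower under each alternative test, scaling and filter and with strain as a block, and 8 to 9 of them with 1 library left out, since *LIFR* was lost 3 times. Of 396 values (33 named genes under 12 alternatives), 364 kept direction and call, 32 lost the call and 0 turned. The number of pathway genes that were DE and higher was 7 in the main fit. It was 5 under each alternative test, scaling and filter and with strain as a block. With 1 monoiPSC library left out it was 3 to 7, the 3 being without FD2M1 at passage 25. The number DE and lower was 26 in the main fit and 26 to 28 under those alternatives. With 1 monoiPSC library left out it was 25 to 29. For passage, and for strain over 4 libraries and over 6, edgeR called 0 of the tested genes among the 9, and DESeq2 called 1 each time. With 1 neoSF library left out, the lone neoSF library is assumed to vary like the monoiPSC libraries. Strain ties each monoiPSC line to 1 neoSF library, and with strain as a block the log2 fold changes of the 9 genes ran from -6.22 to -1.36. The lower neoSF depth limits low genes most there, and in monoiPSCs the counts of *IL6* in FD2M1.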
